A study of Homo sapiens with 8 samples.

Results

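The 7 chemokine genes described here are CXCL1, CXCL2, CXCL3, CXCL8, CXCL16, CCL2 and CCL20, taken by symbol from 15041 coding genes listed in the count tables of the 8 libraries, with a gene missing from a table counted as 0. They were selected on earlier results of these same libraries, in which falls of CXCL1, CXCL2 and CXCL8 after irradiation and the loss of CCL2 in the knockdown had been seen. Their levels, shares of positive cells and log2 differences are therefore given as a description, without p-values. The libraries came from the MDA-MB-231 line, which derives from a human breast cancer without oestrogen, progesterone and HER2 receptors, and each held single cells picked by hand with their whole transcriptome amplified and sequenced from the 3' end. The 4 groups of 2 libraries were ATM knockdown (KD) cells given 5 Gy of ionizing radiation and cultured for 4 h, untreated KD cells, wild type (WT) cells given the same dose and time, and untreated WT cells. The comparison asks how transcript levels respond to radiation with and without ATM, the kinase that starts signalling from DNA double-strand breaks. How ATM was knocked down, and whether the KD cells were a single clone, are not given in the sources used here. All KD libraries share 1 title suffix and all WT libraries another, so genotype and any difference in handling cannot be told apart.

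Chemokines are small secreted proteins that direct migrating leukocytes through G protein-coupled receptors. CXCL1, CXCL2, CXCL3 and CXCL8 carry a glutamate-leucine-arginine motif, act through CXCR2 (CXCL8 also through CXCR1) and attract neutrophils. CXCL16 is made as a membrane protein that the proteases ADAM10 and ADAM17 can release, and its receptor is CXCR6. CCL2 attracts monocytes through CCR2, and CCL20 attracts CCR6-bearing lymphocytes and dendritic cells. Several of these genes are classical targets of the transcription factor NF-kB, often together with AP-1, and their mRNAs are short-lived. ATM is known to take part in the activation of NF-kB after DNA breaks, and MDA-MB-231 is known for high basal output of CXCL8 and IL6.

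The 4 neutrophil-attracting genes lie in 1 cluster on chromosome 4 (GRCh38, GENCODE 29). CXCL8 is at chr4:73740506-73743716 and CXCL1 at chr4:73869393-73871242, both on the plus strand. CXCL3 is at chr4:74036589-74038807 and CXCL2 at chr4:74097035-74099293, both on the minus strand. The span from CXCL8 to CXCL2 is 358788 bases and holds 9 protein-coding genes, of which 6 are listed in the count tables: beside the 4 members these are PF4, at 0 to 1.67 CPM, and CXCL5, at 0 to 0.0519 CPM. CCL2 lies on chromosome 17 at chr17:34255218-34257203 on the plus strand. CXCL16, at chr17:4733526-4739922 on the minus strand, overlaps MED11 in the annotation, and whether counting used the strand is not given in the sources used here, so its counts are uncertain. CCL20 lies at chr2:227805739-227817564 on the plus strand, under a later version of its identifier than the one in the count tables.

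Promoters are shown for the 4 clustered genes because these are the members that moved together in KD cells. RefSeq (GRCh38.p14) gave a promoter for 5 of the 7 members, from 250 bases before to 50 bases after the gene's start in RefSeq, and none was used for CXCL16 and CCL2. That start is the GENCODE one for CXCL1, and lies inside the GENCODE gene by 98 bases for CXCL2, 118 for CXCL3, 63 for CXCL8 and 8103 for CCL20; distances are counted from the RefSeq start. The windows are chr4:73869143-73869442 on the plus strand for CXCL1, chr4:74099146-74099445 on the minus strand for CXCL2, chr4:74038640-74038939 on the minus strand for CXCL3 and chr4:73740319-73740618 on the plus strand for CXCL8. Each is printed 5′ to 3′ on the strand of its gene, and capitals mark matches to GGNNNTTCC, a minimal spelling of the NF-kB (kappaB) motif, on either strand.
CXCL1: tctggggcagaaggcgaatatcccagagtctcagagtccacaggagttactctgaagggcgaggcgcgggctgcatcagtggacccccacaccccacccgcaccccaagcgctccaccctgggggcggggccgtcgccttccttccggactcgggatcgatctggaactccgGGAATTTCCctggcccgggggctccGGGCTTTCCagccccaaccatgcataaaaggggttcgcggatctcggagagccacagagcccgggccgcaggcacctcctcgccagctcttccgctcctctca
CXCL2: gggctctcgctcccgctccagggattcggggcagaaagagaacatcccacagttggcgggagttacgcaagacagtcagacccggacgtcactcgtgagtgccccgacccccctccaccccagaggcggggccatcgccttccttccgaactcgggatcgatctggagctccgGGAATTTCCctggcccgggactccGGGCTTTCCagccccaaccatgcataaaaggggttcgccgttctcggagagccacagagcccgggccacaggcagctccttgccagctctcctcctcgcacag
CXCL3: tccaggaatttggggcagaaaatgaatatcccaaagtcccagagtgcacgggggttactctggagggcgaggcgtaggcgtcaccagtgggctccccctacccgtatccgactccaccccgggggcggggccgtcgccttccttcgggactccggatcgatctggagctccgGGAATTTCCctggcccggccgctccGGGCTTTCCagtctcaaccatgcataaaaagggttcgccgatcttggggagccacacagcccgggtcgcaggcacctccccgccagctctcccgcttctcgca
CXCL8: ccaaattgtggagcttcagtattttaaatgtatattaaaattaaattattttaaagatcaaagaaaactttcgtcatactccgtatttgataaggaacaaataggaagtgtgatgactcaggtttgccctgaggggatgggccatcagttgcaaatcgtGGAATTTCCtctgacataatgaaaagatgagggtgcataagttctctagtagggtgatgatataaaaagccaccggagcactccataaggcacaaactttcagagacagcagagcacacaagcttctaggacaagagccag

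All 4 windows held the same 9 letters, GGAATTTCC, which began 78 bases before the start in CXCL1 and CXCL3, 77 before it in CXCL2 and 91 before it in CXCL8. CXCL1, CXCL2 and CXCL3 held another match, GGGCTTTCC, 53 bases before the start. Of 35116 RefSeq promoters, 20.1% held GGNNNTTCC on either strand, 2.54% held it at least 2 times and 0.461% held GGAATTTCC or its reverse complement. CCL20 held a match on the other strand, GGAAAACCC, 79 bases before the start. Of the 5 members with a promoter, CXCL8 held the AP-1 spelling TGANTCA, 137 bases before the start, which 7.71% of promoters held. TATAAA, held by 11.5% of promoters on either strand, stood 31 bases before the start in CXCL8 and 29 before it in CCL20. The windows of CXCL1 and CXCL3 were 82.5% identical over their alignment, those of CXCL2 and CXCL3 73.8% and those of CXCL1 and CXCL2 71.9%, against 45.2% to 47.9% between these 3 genes and CXCL8. A match is a description of the letters, not evidence that a factor was bound.

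After filtering, 363 of 378 cells were kept and summed per library, giving 9321268 to 24256471 counts per library, and no barcode name occurred in more than 1 library. ATM itself had 12.6 and 13.9 CPM in irradiated KD libraries, 13.6 and 31.8 CPM in untreated KD libraries, 29.1 and 33.9 CPM in irradiated WT libraries and 58.2 and 31.9 CPM in untreated WT libraries. CPM are counts per 1000000 counts of the library after TMM scaling. The library called untreated KD replicate 2 here thus stood at the level of WT libraries for the targeted gene. Log2 differences of CXCL2 and CXCL8 that rest on it are also given without it. For the other members and genes this was done only in part. The labels number no replicates, so the replicate numbers used here only name libraries and pair none of them. Epithelial and mesenchymal markers of the line (8 of 8 listed, among them VIM, CD44 and KRT18) summed to 6748 to 7934 CPM in irradiated KD, 6725 to 7281 CPM in untreated KD, 7982 to 8416 CPM in irradiated WT and 7661 to 7664 CPM in untreated WT libraries. Single markers went opposite ways between genotypes: CD44 was higher by 0.71 log2 units in untreated KD than in untreated WT libraries, and KRT7, KRT8 and KRT18 differed by -1.55, -0.88 and -0.95 (edgeR adjusted p = 0.00349, 4.18e-05, 0.000647 and 0.00268), where 9.94% of all genes tested were called. In irradiated KD against irradiated WT libraries CD44 was called higher and KRT7, KRT8, KRT18 and AXL lower, where 5.1% of genes were called. Of markers low in the line, ESR1 was listed in no table, and PGR, CDH1, GATA3 and KRT14 summed to 35.7 to 54.4 CPM, of which GATA3 alone gave 35.4 to 54.1 CPM. Of 11 leukocyte markers 4 were listed, with sums of 1.42 to 4.65 CPM in irradiated KD, 1.23 to 1.97 CPM in untreated KD, 2.79 to 4.41 CPM in irradiated WT and 4.31 to 9.80 CPM in untreated WT libraries, and CD2, CD3E, CD79A, MS4A1, ITGAM and FCGR3A were among those at 0 throughout.

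In KD cells, irradiation was followed by much lower transcript levels of CXCL8, CXCL2, CXCL1 and CXCL3. CXCL8 had 4.36 and 2.92 CPM in irradiated KD libraries, against 171 and 235 CPM in untreated KD libraries. Both irradiated libraries lay far below both untreated ones, and CXCL8 fell by 5.80 on the log2 scale (SE 0.70). CXCL2 had 3.72 and 1.48 CPM in irradiated KD libraries and 136 and 160.2 CPM in untreated KD libraries. Here too the groups did not overlap, and the fitted log2 difference was -5.82 (SE 0.74). CXCL1 had 0.882 and 2.2 CPM in irradiated KD libraries and 43.8 and 34.5 CPM in untreated KD libraries, a fitted log2 difference of -4.66 (SE 0.60). CXCL3 had 0.441 and 0.0512 CPM in irradiated KD libraries, from 9 counts and 1 count, and 12.3 and 17.3 CPM in untreated KD libraries, a fitted log2 difference of -5.86 (SE 0.99). None of these 4 genes overlapped between the groups. The fit across all genes called 4 of the 7 members, all lower, and 0.225% of the 12456 genes tested (28 genes, 24 of them lower); since this contrast helped to choose the members, nothing is read from the count. Without untreated KD replicate 2 the log2 differences were -5.56 for CXCL8, -5.71 for CXCL2, -4.83 for CXCL1 and -5.60 for CXCL3. With each library left out in turn CXCL3 ranged from -8.0, without irradiated KD replicate 1, to -5.04, without irradiated KD replicate 2.

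The mitochondrial share of counts, at equal depth per cell, was 10.9% and 11.7% in irradiated KD libraries against 12.4% and 13.9% in untreated KD libraries, and 10.1% to 10.6% in WT libraries. It moved with the fall in KD cells, and its part in the result was not tested.

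**Figure D1:**
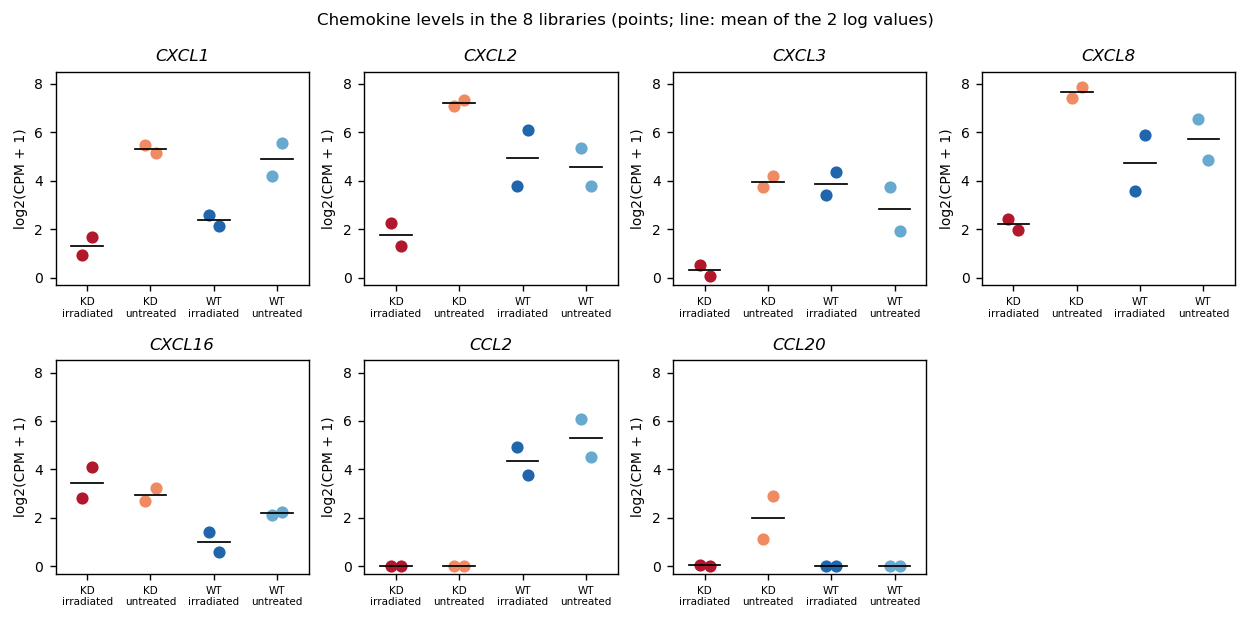
Level of each of the 7 chemokine genes as log2(CPM + 1) in the 8 libraries (points), with the mean of the 2 log values of a group as a line. CXCL1, CXCL2, CXCL3 and CXCL8 are lowest in irradiated KD libraries, CCL2 lies at 0 in every KD library and CCL20 at 0 in every WT library.

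In WT cells the same 4 genes did not move alike. CXCL1 had 5.02 and 3.37 CPM in irradiated WT libraries, against 17.3 and 46.4 CPM in untreated WT libraries. The groups did not overlap, and CXCL1 fell by 2.94 on the log2 scale (SE 0.55), the 1 member of 7 called in this contrast, where 1.65% of genes tested were called. This call was lost without irradiated WT replicate 2, where the log2 difference was -2.66, and also in a fit of the WT groups alone, without cells above 2 times the median total (-2.48) and with the mean CPM per cell (-2.0). CXCL8 had 10.9 and 57.5 CPM in irradiated WT libraries and 92.5 and 28.0 CPM in untreated WT libraries, a log2 difference of -0.80 (SE 0.56). CXCL2 had 12.6 and 67.3 CPM in irradiated WT libraries and 39.4 and 12.8 CPM in untreated WT libraries, a log2 difference of 0.63 (SE 0.59). In both genes the libraries of the 2 groups overlapped and neither difference was called. Without irradiated WT replicate 2, the library with the higher values, the log2 difference became -1.05 for CXCL2 and -2.46 for CXCL8, and without untreated WT replicate 1 that of CXCL8 became 0.30. CXCL3 had 9.48 and 19.7 CPM in irradiated WT libraries and 12.5 and 2.77 CPM in untreated WT libraries, overlapping groups with a log2 difference of 0.94 (SE 0.76).

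The irradiation change in KD cells minus that in WT cells was itself part of the fit. This difference of log2 changes was -6.45 (SE 0.92) for CXCL2, -6.79 (SE 1.23) for CXCL3 and -5.0 (SE 0.85) for CXCL8, and all 3 were called, where 0.185% of genes tested were called. For CXCL1, lower after irradiation in both genotypes, it was -1.73 (SE 0.75) and was not called. Without untreated KD replicate 2 the values were -6.33 for CXCL2, -6.53 for CXCL3, -4.76 for CXCL8 and -1.89 for CXCL1. With each library left out in turn CXCL2 ranged from -7.48 to -4.77 and CXCL8 from -6.12 to -3.33, in both genes with the most negative value without untreated WT replicate 1 and the least negative without irradiated WT replicate 2. CXCL3 ranged from -8.93, without irradiated KD replicate 1, to -5.98, without irradiated KD replicate 2. None of these 3 calls was lost by leaving out 1 library. The CXCL3 call was lost when cells with more than 2 times the median count of their library were left out and when the mean CPM per cell was used, with values of -6.05 and -3.75. DESeq2's Wald test called 2 members in this contrast, CXCL2 and CXCL8, and did not call CXCL3. The contrasts share libraries, so they are not independent of each other. CXCL2 and CXCL8 were selected on falls after irradiation, which enter this difference, so nothing is read from the 3 calls.

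Before irradiation CXCL2 was higher in KD than in WT libraries, and CXCL8 lay higher without being called. The CXCL2 values of 136 and 160.2 CPM in untreated KD libraries lay above the 39.4 and 12.8 CPM of untreated WT libraries, and CXCL2 rose by 2.50 log2 units (SE 0.62). Without untreated KD replicate 2 this was 2.38, and it was 3.53 or 1.91 when replicate 1 or replicate 2 of untreated WT was left out. The call was lost when the cell with most CXCL2 was removed from each library, at 2.26, and in DESeq2's Wald test, at 2.49. For CXCL8, 171 and 235 CPM in untreated KD libraries stood above 92.5 and 28.0 CPM in untreated WT libraries, with no overlap and a log2 difference of 1.75 (SE 0.57) that was not called. In the WT library with 92.5 CPM, untreated WT replicate 1, 68.4% of CXCL8 counts came from 1 cell. Without that library the log2 difference was 2.86, and without the largest cell of each library 2.56; both were called. Without untreated KD replicate 2 it was 1.5. CXCL1 had 43.8 and 34.5 CPM in untreated KD and 17.3 and 46.4 CPM in untreated WT libraries, and CXCL3 had 12.3 and 17.3 CPM against 12.5 and 2.77 CPM. Both overlapped between genotypes, with log2 differences of 0.30 (SE 0.50) for CXCL1 and 0.95 (SE 0.76) for CXCL3. Of the 7 members 2 were called in this contrast (CXCL2 higher, CCL2 lower), where 9.94% of genes tested were called. CCL2 was selected for its loss in KD cells and passed the filter through WT libraries alone, so nothing is read from the count.

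Among irradiated cells all 4 genes lay lower in KD than in WT libraries, and 3 of them were called. CXCL8 had 4.36 and 2.92 CPM in irradiated KD libraries and 10.9 and 57.5 CPM in irradiated WT libraries. The fitted log2 difference was -3.25 (SE 0.64), and it was called, but without irradiated WT replicate 2 it was -1.58 and was not. CXCL2, at 3.72 and 1.48 CPM in irradiated KD libraries and 12.6 and 67.3 CPM in irradiated WT libraries, was lower by a fitted log2 difference of -3.95 (SE 0.69), or -2.27 without irradiated WT replicate 2. CXCL3, at 0.441 and 0.0512 CPM in irradiated KD and 9.48 and 19.7 CPM in irradiated WT libraries, differed by -5.84 (SE 0.99), or by -7.97 without irradiated KD replicate 1. CXCL1 differed by -1.43 (SE 0.56), which was not called, although both irradiated KD libraries, at 0.882 and 2.2 CPM, lay below both irradiated WT libraries, at 5.02 and 3.37 CPM. In irradiated KD replicate 2 1 cell held 83.7% of the CXCL1 counts, and with the largest cell of every library removed the log2 difference was -2.78 and was called. In all, 5 of the 7 members were called (CXCL16 higher; CXCL2, CXCL3, CXCL8 and CCL2 lower), where 5.1% of genes tested were called. CCL2 was selected for its loss in KD cells, and CXCL2 and CXCL8 on a contrast that shares the irradiated KD libraries, so nothing is read from the count.

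**Figure D2:**
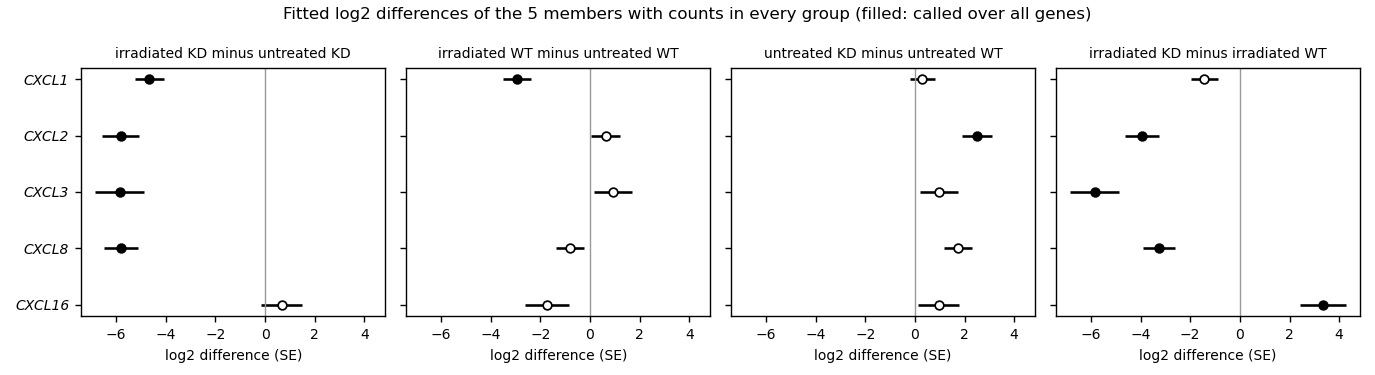
Fitted log2 difference with its SE (x axis) for the 5 members with counts in every group, in 4 contrasts; filled points were called over all genes tested. After irradiation CXCL1, CXCL2, CXCL3 and CXCL8 lie between -5.86 and -4.66 in KD cells, while in WT cells CXCL1 alone of these 4 is called.

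Ordered by level, CXCL8 was highest in untreated KD libraries and lowest in irradiated KD libraries, and both WT groups lay between and overlapped each other. CXCL2 and CXCL3 had the same lowest group. For CXCL3 the untreated KD and both WT groups overlapped, and for CXCL2 the WT groups overlapped below untreated KD. CXCL1 was low in both irradiated groups, at 0.882 to 2.2 CPM in irradiated KD and 3.37 to 5.02 CPM in irradiated WT libraries, and its untreated groups overlapped.

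CXCL16 took another course. It had 5.98 and 15.9 CPM in irradiated KD, 5.42 and 8.37 CPM in untreated KD, 1.67 and 0.519 CPM in irradiated WT and 3.31 and 3.8 CPM in untreated WT libraries. Every KD library lay above every WT library, and the KD groups overlapped each other. The log2 difference after irradiation was 0.66 (SE 0.82) in KD cells and -1.74 (SE 0.88) in WT cells, where the groups did not overlap, and neither was called. Without irradiated KD replicate 2 the value in KD cells was -0.21. Between genotypes CXCL16 differed by 0.96 (SE 0.83) in untreated cells, which was not called, and by 3.36 (SE 0.92) in irradiated cells, which was called. That call was lost without irradiated WT replicate 1, irradiated WT replicate 2 or irradiated KD replicate 2, with log2 differences of 4.38, 2.70 and 2.48. The irradiated WT libraries held 15 and 10 counts of CXCL16, and the irradiated KD libraries 122 and 311. Of its known sheddases, ADAM10 had 153 and 156 CPM in untreated KD libraries and 276 and 239 CPM in untreated WT libraries, a log2 difference of -0.74 (adjusted p = 0.0121) lost without untreated KD replicate 1 or untreated WT replicate 1, while ADAM17 was called in no contrast.

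CCL2 was found in WT cells and in no KD cell. It had 0 counts in all 4 KD libraries, against 29.3 and 12.7 CPM in irradiated WT libraries and 66.1 and 22.0 CPM in untreated WT libraries. With 3 counts per library as the floor, CCL2 was in irradiated KD libraries at least 195-fold lower than in irradiated WT replicate 1 and at least 84.6-fold lower than in replicate 2. In untreated KD libraries it was at least 370-fold lower than in untreated WT replicate 1 and at least 123-fold lower than in replicate 2. None of the 171 kept cells of the 4 KD libraries held a CCL2 count, which allows a share of up to 1.75%. This limit is on cells with a count, not on cells that express CCL2, and it covers counting error only, since cells of a library are not replicates. In WT cells the irradiated and untreated groups overlapped, with a log2 difference of -1.08 (SE 0.57) that was not called. A single cell held 48.7% and 97.6% of the CCL2 counts of the irradiated and 74.6% and 54.1% of those of the untreated WT libraries. With those cells' counts set aside, the bounds were 100.2-fold and 2.07-fold against irradiated WT replicates 1 and 2, and 93.8-fold and 56.5-fold against untreated WT replicates 1 and 2. The difference between irradiated KD and irradiated WT replicate 2 thus rested mostly on 1 cell. In untreated WT replicate 1, 37 of 48 cells held CCL2, 18 of them with 1 or 2 counts beside 1 cell with 1191, and whether reads passed between the barcodes of a library was not tested. CCL2 is also a product of stromal and endothelial cells. The summed level of 6 such markers, all listed, was 5.58 to 7.06 CPM in irradiated KD, 7.82 to 14.5 CPM in untreated KD, 12.8 to 18.2 CPM in irradiated WT and 40.0 to 50.1 CPM in untreated WT libraries. In untreated WT libraries PECAM1 gave 19.1 and 32.9 CPM of this sum, PDGFRB 10.4 and 7.49 CPM and LUM 9.61 and 9.70 CPM. DCN, VWF and CDH5 stood at 0 to 0.83 CPM in every library. The part of these markers in the CCL2 difference was not tested.

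CCL20 was nearly absent. It had 0.0490 and 0 CPM in irradiated KD, 1.16 and 6.40 CPM in untreated KD and 0 CPM in all WT libraries. The untreated KD values rested on 18 and 117 counts, of which 1 cell held 100% and 97.4%. Against the floor of untreated WT libraries, untreated KD replicate 1 lay at least 8.35-fold higher and replicate 2, the library with ATM at the level of WT, at least 46.0-fold higher, and the fit called CCL20 in no contrast. CCL2 passed the filter on low counts through WT libraries alone and CCL20 through KD libraries alone.

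**Figure D3:**
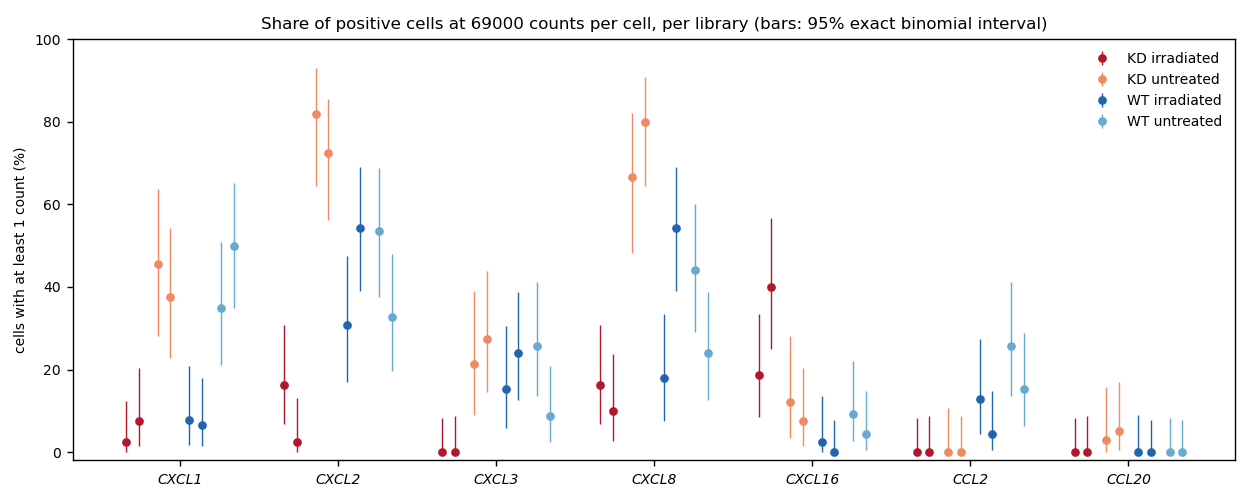
Share of cells with at least 1 count of each gene after thinning every cell to 69000 counts (y axis, percent of 33 to 46 cells per library), 1 point per library with its 95% exact binomial interval. CXCL2- and CXCL8-positive cells are most frequent in untreated KD libraries, and CXCL16-positive cells in irradiated KD libraries.

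To compare cells at equal depth, each was thinned to 69000 counts, which 330 cells reached and 33 did not (3 in irradiated KD replicate 2, 8 and 4 in untreated KD, 9 and 2 in irradiated WT and 5 and 2 in untreated WT libraries). Intervals are 95% exact binomial (Clopper-Pearson) and cover only the sampling of cells. CXCL8-positive cells made up 16.3% (6.81% to 30.7%) and 10.0% (2.79% to 23.7%) of irradiated KD cells, against 66.7% (48.2% to 82.0%) and 80.0% (64.4% to 90.9%) of untreated KD cells. In WT cells they made up 17.9% (7.54% to 33.5%) and 54.3% (39.0% to 69.1%) after irradiation, against 44.2% (29.1% to 60.1%) and 23.9% (12.6% to 38.8%) in untreated cells. The KD groups were apart and the WT groups overlapped. Unthinned, the shares were 18.6% and 14.0% in irradiated KD, 80.5% and 93.2% in untreated KD, 31.2% and 77.1% in irradiated WT and 95.8% and 50% in untreated WT libraries. The libraries held no cell type known to lack these genes, so no background share could be measured.

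The amount per positive cell was lower as well. A CXCL8-positive cell held on average 3.29 and 2.50 thinned counts in irradiated KD libraries and 18.6 and 27.7 in untreated KD libraries, against 9.0 and 7.72 in irradiated WT and 8.53 and 5.18 in untreated WT libraries. Both the share of positive cells and the counts in them were thus lowest in irradiated KD libraries. The highest single cell held 9 and 5 thinned CXCL8 counts in irradiated KD libraries and 149 and 180 in untreated KD libraries. Cells with at least 5 thinned counts numbered 2 and 1 in irradiated KD libraries and 12 and 20 in untreated KD libraries.

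CXCL2 showed the same pattern in KD cells. Positive cells made up 16.3% (6.81% to 30.7%) and 2.50% (0.0633% to 13.2%) of irradiated KD cells, against 81.8% (64.5% to 93.0%) and 72.5% (56.1% to 85.4%) of untreated KD cells, while the WT libraries held 30.8% and 54.3% after irradiation and 53.5% and 32.6% untreated. CXCL1-positive cells made up 2.33% (0.0589% to 12.3%) and 7.50% (1.57% to 20.4%) of irradiated KD cells, against 45.5% (28.1% to 63.6%) and 37.5% (22.7% to 54.2%) of untreated KD cells. CXCL1 was the gene for which WT cells moved alike, with 7.69% (1.62% to 20.9%) and 6.52% (1.37% to 17.9%) positive after irradiation, against 34.9% (21.0% to 50.9%) and 50% (34.9% to 65.1%) untreated. Unthinned, CXCL1-positive cells made up 14.6% and 22.9% of irradiated and 70.8% and 91.7% of untreated WT cells. No thinned irradiated KD cell held CXCL3 (0 of 43 and 0 of 40), against 7 of 33 and 11 of 40 untreated KD cells.

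CXCL16-positive cells were most frequent in irradiated KD libraries, at 18.6% (8.39% to 33.4%) and 40.0% (24.9% to 56.7%), against 12.1% (3.40% to 28.2%) and 7.50% (1.57% to 20.4%) of untreated KD cells. In WT libraries 1 of 39 and 0 of 46 irradiated cells and 4 of 43 and 2 of 46 untreated cells were positive. Unthinned, the KD shares were 32.6% and 46.5% after irradiation and 14.6% and 13.6% untreated. The share of positive cells did not overlap between the KD groups, whereas the level in CPM did. In untreated KD replicate 2 1 cell held 56.2% of the CXCL16 counts. A CXCL16-positive cell held on average 2.38 and 1.88 thinned counts in irradiated KD libraries, close to the level of a single count.

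**Figure D4:**
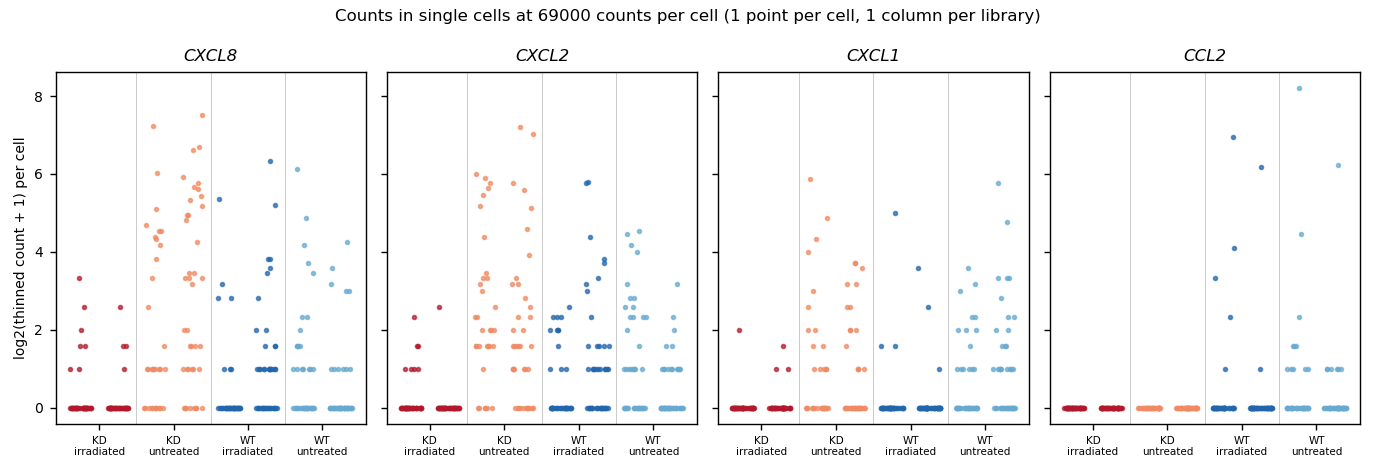
Thinned counts per cell as log2(count + 1) (y axis) for CXCL8, CXCL2, CXCL1 and CCL2, 1 point per cell and 1 column of points per library. The highest CXCL8 cells reach 149 and 180 counts in untreated KD libraries and 9 and 5 in irradiated KD libraries, and in each WT library 1 cell stands highest for CCL2.

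Cells that held several of CXCL1, CXCL2, CXCL3 and CXCL8 were common in untreated KD libraries. At least 2 of the 4 were found in 1 of 43 and 1 of 40 irradiated KD cells, against 24 of 33 (72.7%) and 29 of 40 (72.5%) untreated KD cells. The WT libraries held 8 of 39 (20.5%) and 20 of 46 (43.5%) such cells after irradiation and 20 of 43 (46.5%) and 16 of 46 (34.8%) untreated. All 4 genes were found together in 4 and 6 untreated KD cells, in 1 and 1 irradiated WT cells and in no other library. None of the 4 was found in 29 of 43 and 33 of 40 irradiated KD cells, against 1 of 33 and 2 of 40 untreated KD cells. Such counts follow in part from the share of cells positive for each gene alone. What those shares would give by themselves was not computed, so no joint expression is read from the counts.

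**Figure D5:**
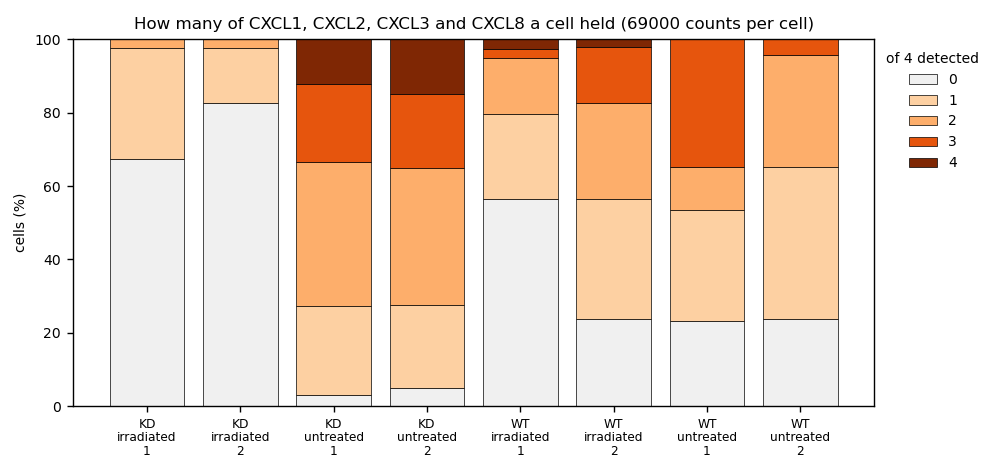
Percent of cells in each library (stacked bars) that held 0, 1, 2, 3 or all 4 of CXCL1, CXCL2, CXCL3 and CXCL8 at 69000 counts per cell. Cells with 2 or more are 72.7% and 72.5% of untreated KD libraries and 2.33% and 2.50% of irradiated KD libraries.

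Within libraries the 4 genes were loosely tied to each other from cell to cell, and several pairs did not keep their sign. Across the 33 and 40 cells of the untreated KD libraries, the Spearman correlation of thinned counts was 0.23 and 0.43 for CXCL2 with CXCL8, 0.24 and 0.40 for CXCL1 with CXCL8 and 0.04 and 0.13 for CXCL1 with CXCL2. The pairs with CXCL3 spanned 0.32 to 0.36 for CXCL1, 0.16 to 0.46 for CXCL2 and 0.01 to 0.38 for CXCL8 in these libraries. In irradiated WT libraries the span was 0.34 to 0.48 for CXCL3 with CXCL8, 0.32 to 0.41 for CXCL2 with CXCL3 and 0.21 to 0.42 for CXCL2 with CXCL8. CXCL1 with CXCL8 ranged from 0.09 to 0.44 in irradiated and from 0.33 to 0.45 in untreated WT libraries. In untreated WT libraries CXCL2 with CXCL8 spanned -0.10 to 0.33, CXCL1 with CXCL2 -0.27 to 0.38 and CXCL3 with CXCL8 -0.17 to 0.13. These values come from counts that are mostly 0, 1 or 2, although CXCL2 and CXCL8 often had more in untreated KD cells. Cells of a library also share its preparation. Of the few CCL2-positive cells, 1 of 5 and 0 of 2 in irradiated and 4 of 11 and 3 of 7 in untreated WT libraries also held CXCL8. Thinned CXCL16-positive cells were few in WT libraries, with 1 in irradiated WT replicate 1 and 4 and 2 in untreated WT libraries, and none of them held CXCL8. Cells with both genes were found in irradiated KD replicate 1 and in both untreated KD libraries.

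CXCL1, CXCL2 and CXCL3 are close relatives, and reads could be split between them. Of the 50-base windows in the last 500 bases of the CXCL1 transcript, where a 3' library reads, 10.2% occur in CXCL2 and 0% in CXCL3, and CXCL8, CXCL16, CCL2 and CCL20 share no such window with another member. The counts of CXCL1 and CXCL2 are uncertain to that extent.

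The wider pathway was read through gene lists that, like the members, were set with earlier results of these data in view. Their counts of calls and adjusted p-values therefore describe these libraries and are not independent support. In irradiated against untreated KD cells, 3 of 16 NF-kB feedback and target genes tested fell and 0 rose, where 0.225% of all genes tested were called, with a median log2 difference of -1.15 against 0.01 over all genes tested. BIRC3, which inhibits apoptosis and signals with TNF receptors, had 40.9 and 30.5 CPM in irradiated KD libraries and 241 and 285 CPM in untreated KD libraries. Its log2 difference was -2.88 (SE 0.28, edgeR adjusted p = 0.000349). NFKBIA, the inhibitor that holds NF-kB in the cytoplasm, had 153 and 87.5 CPM in irradiated KD libraries and 344 and 389 CPM in untreated KD libraries, a log2 difference of -1.61 (adjusted p = 0.00337). TNFAIP2 fell by 2.44 (adjusted p = 0.00102). Of the 17 genes of the NF-kB pathway core (RELA, NFKB1, the IKK complex and its adaptors), 0 were called and 14 had negative log2 differences, with a median of -0.15. RELA had 101 and 98.3 CPM in irradiated and 94.2 and 115 CPM in untreated KD libraries. NFKB1 overlapped as well, at 49.9 and 33.1 against 38.8 and 53.6 CPM. RELB, NFKB2 and REL, though not called, lay lower in both irradiated KD libraries than in both untreated ones. RELB had 13.17 and 11.05 against 35.54 and 26.05 CPM. NFKB2 had 17.53 and 8.39 against 39.09 and 39.07 CPM, and REL 7.25 and 7.83 against 16.9 and 17.1 CPM.

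Among cytokines and growth factors, 3 of 11 tested fell in irradiated KD cells and 0 rose, with a median of -1.92. IL6, an inflammatory cytokine, had 20.2 and 21.6 CPM in irradiated KD libraries and 157 and 190.1 CPM in untreated KD libraries, a log2 difference of -3.05 (SE 0.40, adjusted p = 0.00158). CSF2 and CSF1, growth factors of granulocytes and macrophages, fell by 3.61 (adjusted p = 0.0184) and 1.38 (adjusted p = 0.00205). Of 11 genes of mRNA decay and stability, ZC3H12A fell. This gene encodes regnase-1, a nuclease that degrades cytokine mRNAs and is itself an NF-kB target, and it had 2.11 and 2.05 CPM in irradiated KD libraries against 45.9 and 48.1 CPM in untreated KD libraries, a log2 difference of -4.50 (SE 0.46, adjusted p = 0.000357). Of 11 AP-1 and partner factors, CEBPD, a C/EBP transcription factor, fell by 1.82 (adjusted p = 0.0121). The calls of BIRC3, NFKBIA, TNFAIP2, IL6, CSF1, CSF2, ZC3H12A and CEBPD in this contrast held in all 15 alternative settings run. None of the 18 upstream receptors and adaptors and neither sheddase was called in this contrast.

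For BIRC3, IL6, CSF2 and ZC3H12A the irradiation change in KD cells also differed from that in WT cells. The differences of log2 changes were -2.77 for BIRC3 (adjusted p = 0.00531), -3.0 for IL6, -4.73 for CSF2 and -3.21 for ZC3H12A (adjusted p = 0.0367 for each of these 3). The IL6 call was lost with the mean CPM per cell, at -2.20. That of ZC3H12A was lost there, at -2.87, without cells above 2 times the median total, at -2.05, and without irradiated KD replicate 2, at -3.19. In WT cells JUNB, an AP-1 subunit, fell by 1.22 after irradiation (adjusted p = 0.0297), and SOD2, CSF1 and ZFP36L1 also fell, with log2 differences of -1.45, -0.80 and -1.01 (adjusted p = 0.0488, 0.0420 and 0.0420). IRAK1, a kinase of interleukin-1 receptor signalling, rose by 0.79 (adjusted p = 0.0376). Each of these 5 calls was lost without 1 or more of the WT libraries.

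In untreated cells the KD libraries differed from the WT libraries by higher IL24, LIF and CSF2 among cytokines (5 of 11 rose, 1 fell, median 1.71), where 9.94% of all genes tested were called. LIF had 48.3 and 57.9 CPM in untreated KD and 7.95 and 5.44 CPM in untreated WT libraries, a log2 difference of 2.98 (adjusted p = 0.00013). IL24 rose by 4.28 (adjusted p = 0.0031), CSF2 by 2.78 (adjusted p = 0.00881) and IL6 by 1.76 (adjusted p = 0.00776), while IL18 fell by 1.78 (adjusted p = 0.0157), a call lost without untreated WT replicate 2. The tumour necrosis factor receptor TNFRSF1B rose by 4.10 (adjusted p = 0.000579), 1 of 3 upstream receptors and adaptors that rose of 18 tested. In the feedback and target list 2 of 16 rose and 0 fell, a share near that of all genes: BIRC3 by 1.08 (adjusted p = 0.0158) and SOD2 by 1.30 (adjusted p = 0.0255), with SOD2 at 665 and 255 CPM in untreated KD and 244 and 130.0 CPM in untreated WT libraries. SOD2 was at 0.45 and not called without untreated KD replicate 1, and BIRC3 was at 0.77 and not called without untreated WT replicate 1. In the core list RELB rose by 1.65 (adjusted p = 0.0156), a call lost without untreated KD replicate 1 or untreated WT replicate 1.

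In irradiated cells 4 of 16 feedback and target genes were lower in KD than in WT libraries and 1 was higher, where 5.1% of all genes tested were called and the median of the list was 0.01. TNFAIP2 was at -2.33 (adjusted p = 0.00035), NFKBIA at -1.93 (adjusted p = 0.000262), BCL3 at -1.79 (adjusted p = 0.0125) and BIRC3 at -1.69 (adjusted p = 0.00197). The AP-1 subunits FOS and JUNB and the factor CEBPD were lower by fitted log2 differences of -1.69, -1.26 and -1.61 (adjusted p = 0.00268, 0.00944 and 0.00518), 3 of 11 in their list. Of this list 2 of 11 genes, JUNB and JUND, were also called lower in untreated KD than in untreated WT libraries. There 9.94% of all genes tested were called. JUNB had 39.7 and 33.7 CPM in untreated KD and 116 and 109 CPM in untreated WT libraries. JUND was at -0.43 without untreated KD replicate 1. FOS, not called there, had 73.7 and 91.8 against 170 and 135 CPM, and CEBPD overlapped. Lower JUNB and FOS were thus seen before irradiation too. Among irradiated cells LIF and IL32 were higher in KD libraries, at 2.07 and 1.69 (adjusted p = 0.00337 and 0.000384). BCL3 was lost without irradiated WT replicate 2 or irradiated KD replicate 2, and JUNB without irradiated WT replicate 1 or irradiated KD replicate 1.

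The other chemokine ligands and the receptors gave little signal. Of 37 other ligands 10 were listed and 7 tested, and 1 was called in any contrast. This was CCL26, a CCR3 ligand, at 0.441 and 10.7 CPM in irradiated KD, 0 CPM in both untreated KD, 13.0 and 1.30 CPM in irradiated WT and 5.51 and 49.7 CPM in untreated WT libraries, lower in untreated KD than in untreated WT cells (adjusted p = 0.00588). With no count in untreated KD libraries, this contrast rested on 133 and 968 counts in the untreated WT libraries. The call was not followed through the alternative settings. Of 23 receptors 13 were listed and 4 tested (CXCR4, CCR10, ACKR3 and CCRL2), and 0 were called in the 5 contrasts. CXCR2, the receptor of the neutrophil-attracting members, had no count outside untreated WT replicate 2, where it stood at 0.410 CPM. CXCR1 was listed in no table.

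Among the 5029 genes tested whose average log2 CPM reached 5, those whose level followed CXCL8 most closely over the 8 libraries were RASSF3 (Pearson r of log2 CPM 0.97), KMT2C (0.94), IL6 (0.94), BIRC3 (0.92), ACYP1 (0.92), BSDC1 (0.92), SREK1IP1 (0.91) and PNISR (0.90). RASSF3 varied far less than CXCL8, from 20.9 and 21.6 CPM in irradiated KD to 40.7 and 50.2 CPM in untreated KD libraries. CCL2 was followed most closely by RARRES2 (0.99), UCP2 (0.99), SMARCA1 (0.98), ID1 (0.98) and MINOS1 (0.98), which were present in KD cells at lower levels. RARRES2, for example, had 135 and 115 CPM in irradiated KD, 117 and 138 CPM in untreated KD, 392 and 399 CPM in irradiated WT and 537 and 515 CPM in untreated WT libraries. CXCL16 was followed by GBP3 (0.95), TMEM69 (0.95), NIPAL3 (0.94), TTC1 (0.94) and TMEM183A (0.93). With 8 libraries in 4 groups and 5029 candidates such values describe likeness of pattern only.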

How the data were processed

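Single-cell transcriptomes of MDA-MB-231 were made with a modified Smart-seq2 protocol and 3' mRNA libraries, per the labels' protocols. Per the submitters' processing notes the authors used Trimmomatic 0.36, HISAT2 2.1.0 and HTSeq 0.9.1 with hg38. The deposited files hold whole-number counts per coding gene and cell. Whether these are reads or molecules, and whether counting used the strand, is not given in the sources used here.

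Cells with at least 1000 genes and 5000 counts were kept, which left out 15 KD cells, and summed per library, so cells with more counts weigh more. The summed counts went through filterByExpr and TMM scaling, and edgeR 4.0.16 fitted them (quasi-likelihood test, 4 groups in 1 fit, common biological coefficient of variation 0.458, 4 residual degrees of freedom, Benjamini-Hochberg adjustment over 12456 genes). A gene was called at an adjusted p of 0.05 or less. The 5 contrasts were irradiated minus untreated in KD and in WT, the difference of these changes, and KD minus WT untreated and irradiated. Nothing in the labels tells separate cultures from repeat libraries within a group, so the p-values reflect library-to-library spread that may be technical. Replicate libraries differed by more than counting noise (chi-square per degree of freedom 30.6 to 63.2). In counts simulated for the KD irradiation contrast over 12163 genes, 53% of the 2-fold and 100% of the 4-fold changes put in were found, beside 8 false calls. A second set without changed genes gave 0 calls. The changes were put into some of these genes only, so the percentages are not rates for all genes tested. They were not split by expression level, and nothing is read from them for genes at low counts. How often a change would be found in a single member, above all at the low counts of CXCL3, CXCL16 and CCL20, cannot be read from them. Shares of positive cells used counts thinned to 69000 per cell and a cut-off of 1 count. In other settings, a share was taken to move if it left the interval of the main share. With at least 5 counts as the cut-off 32 shares moved and 24 did not, and without thinning 16 moved and 40 did not. At 35000 counts per cell 7 moved and 49 did not, and with another seed 2 and 54. The shares thus depend on the cut-off.

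The members, gene lists and tests were chosen with earlier results of these data known. Genes named are the 7 members, at most 4 called genes per list and contrast, ATM, and the genes most correlated over the 8 libraries with CXCL8 (8 genes), CCL2 (5) and CXCL16 (5) with log2 CPM at a prior count of 2. CXCR1, CXCR2, RELA, PF4, CXCL5, ADAM17, the 4 receptors tested, the 5 line markers called between irradiated cells, the stromal and endothelial markers, and IL6 and IL32 in KD against WT cells were named outside this rule, after their values were seen. So were RELB, NFKB2, REL and NFKB1 in KD cells, and FOS and CEBPD in untreated cells. Positions came from GENCODE 29 and promoters from RefSeq. Alternatives were DESeq2 1.42.0 size factors and Wald test, no filter, limma 3.58.1 on mean CPM per cell (pseudocount 1), the compared groups alone, all barcodes, no cells above 2 times the median total, each library left out and, added after seeing the data, each member's largest cell removed. R 4.3.3, Python 3.11.15, numpy 2.4.6, pandas 2.3.3, scipy 1.17.1, Biopython 1.88 and matplotlib 3.10.9 were used.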

Additional observations from a re-analysis of the deposited data

Results flagged for a closer look

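The irradiation change differed between the genotypes, by the test of the difference in the fit across all genes, for 7 of the genes named. The difference of log2 changes, KD minus WT, was -6.45 for CXCL2, -6.79 for CXCL3, -5.0 for CXCL8, -2.77 for BIRC3, -3.0 for IL6, -4.73 for CSF2 and -3.21 for ZC3H12A. All 7 were lower in both irradiated KD libraries than in both untreated KD libraries. The 3 chemokines among them were selected on these data, and the lists that hold BIRC3, IL6, CSF2 and ZC3H12A were set with earlier results of these data in view. Of all genes tested 0.185% were called in this contrast, and nothing is read from the count of 7. The calls of CXCL3, IL6 and ZC3H12A were lost in some settings, as given above. Groups of 2 libraries are too small to look for a single library that stands apart.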

How the results depend on the processing

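No paired analysis was possible because the labels number no replicates. In irradiated against untreated KD cells 4 members were called in every setting run. The count of genes called there was 28, and it was 236 with no filter, 177 with DESeq2's Wald test, 65 in the compared groups alone, 68 without cells above 2 times the median total, 122 (34 higher, 88 lower, against 4 and 24) with the mean CPM per cell, and 44 to 142 with 1 library left out. In WT cells the 205 genes became 534 with no filter, 585 with DESeq2, 33 in the compared groups alone, 130 without the large cells and 89 to 376 with 1 library left out; the 1 member called became 2 with no filter (CXCL8 added) and 0 in the compared groups alone, without the large cells and with the mean CPM. For the difference of changes the 23 genes became 195 with no filter, 159 with DESeq2 and 31 to 128 with 1 library left out. Between untreated cells the 1238 genes became 718 in the compared groups alone, and the 2 members called became 4 without the large cells and with the mean CPM. Between irradiated cells the 635 genes became 1044 with no filter, 1106 with DESeq2 and 308 to 980 with 1 library left out, and the 5 members 3 to 5.

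The sign turned for differences that were not called: CXCL2 in WT cells at -0.29 with the mean CPM and at -1.05 to 1.65 with 1 library left out, CXCL8 in WT cells at -2.46 to 0.30, CXCL16 in KD cells at -0.21 to 1.20 and CXCL1 between untreated cells at -0.25 to 1.18 with 1 library left out, and, between untreated cells, CXCL16 at -0.52 without the large cells and CXCL3 at -0.017 with the mean CPM. CXCL8 in WT cells was called at -2.46, without irradiated WT replicate 2. The cause was not tested. The fits with a group of 1 library assume that it varies like the others. Low counts limit the values of CXCL3, CXCL16 and CCL20.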
